A study of Mus musculus with 3 samples.

Results

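Follicular regulatory T (TFR) cells share the factors that set T-cell fate with helper and effector cells, and 10 genes for such factors were read out in their RNA: Prdm1, Bcl6, Bach2, Irf4, Maf, Id2, Id3, Tcf7, Lef1 and Foxo1. The genes were chosen by name, and all 10 were found among the 25759 genes of the deposited data. An RPKM, which is a read count on exons divided by exon length and by library size, above 5 in at least 1 library was reached by 9 of the 10, as by 7017 genes in all, and Bach2 stayed below it. Each of 3 genotypes gave 1 library of sorted B220-CD4+Blimp-GFP+CXCR5+GITRhi cells. There are thus no replicates, and values are compared without tests or p-values. Spleen and mLN cells were taken on day 10 after immunization with 125 µg NP-KLH, a hapten coupled to a carrier protein, with a boost on day 7.

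All mice carried FIC, a Cre recombinase made from the Foxp3 locus and so active in regulatory T cells, and Prdm1gfp, a Prdm1 allele with a GFP reporter that was used for the sort. The library labelled N came from Nfatc1fl/fl.Prdm1gfp/+.FIC mice, in which floxed Nfatc1 is the target of Cre. The library labelled αA came from Nfatc1caaA.Prdm1gfp/+.FIC mice, in which Cre turns on a constitutively active NFATc1/αA. The library labelled PαA came from Nfatc1caaA.Prdm1gfp/fl.FIC mice, in which the second Prdm1 allele is floxed as well. The mice were male or female on a C57BL/6J background, and neither their age nor the number behind each library is given in the sources used here. Nfatc1 itself had an RPKM of 63.6 in N, 62.9 in αA and 32.4 in PαA. These totals over the whole gene did not show the labelled loss in N or the labelled gain in αA and PαA. They do not separate the exons of the floxed allele or RNA of the introduced NFATc1/αA. The genotypes could thus not be checked by them, and the names stand for labels throughout. RNA from the gfp allele and from the other Prdm1 allele is counted on the same gene and cannot be told apart.

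Blimp-1, the product of Prdm1, and Bcl6 are transcriptional repressors that oppose each other. Bcl6 is needed for the follicular program of TFH and TFR cells, while Blimp-1 drives plasma cell and effector T-cell differentiation and marks effector Tregs. IRF4 and c-Maf act with AP-1 factors in effector and follicular T cells, and Bach2 holds effector genes back. The ID proteins Id2 and Id3 sequester E proteins, and TCF-1 (Tcf7), LEF-1 (Lef1) and Foxo1 are linked to naive, memory-like and early follicular states.

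The sequence around annotated starts of the genes was searched for short motifs known for these factors, because their products are described as regulators of each other. RefSeq start sites with 250 bases before and 50 after them (GRCm38.p6) were at hand for 9 of the 10 genes, 14 starts in all, and for 32851 starts genome-wide. Both strands were searched. The letters AGNGAAAG, known for Blimp-1, stood in 1 of the 14 windows, that of Bach2, and in 8.63% of all windows. GTAAACA, known for FOXO proteins, was in the windows of Prdm1 and of 1 Tcf7 start, and in 3.65% of all windows. TTCCTNGAA, known for Bcl6, was in 1 of the Bcl6 windows and in 1.59% of all, and TGCTGAG, known for MAF, in 2 Lef1 windows and 7.84% of all. CTTTGAT (TCF-1 and LEF-1) and the IRF motif were in none of the 14 windows and in 3.73% and 3.44% of all. The windows of Prdm1, whose own allele was targeted, of Bach2 and Bcl6, which hold a Blimp-1 and a Bcl6 motif, and of Id3, which holds no motif of the search, are printed 5′ to 3′ with the matched letters in capitals.
Prdm1 (chr10:44458699-44458998, minus strand): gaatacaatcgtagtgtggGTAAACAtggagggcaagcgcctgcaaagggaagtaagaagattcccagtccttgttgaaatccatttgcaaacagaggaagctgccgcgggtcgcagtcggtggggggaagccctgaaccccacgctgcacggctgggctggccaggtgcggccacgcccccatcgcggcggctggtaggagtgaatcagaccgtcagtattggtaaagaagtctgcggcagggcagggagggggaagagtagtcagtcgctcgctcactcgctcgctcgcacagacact
Bach2 (chr4:32417185-32417484, plus strand): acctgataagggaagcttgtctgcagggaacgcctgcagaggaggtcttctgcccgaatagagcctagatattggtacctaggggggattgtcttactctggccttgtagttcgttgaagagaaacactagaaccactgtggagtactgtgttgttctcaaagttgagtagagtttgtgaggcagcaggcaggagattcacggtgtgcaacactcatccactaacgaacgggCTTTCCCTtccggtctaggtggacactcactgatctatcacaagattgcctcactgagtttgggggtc
Bcl6 (chr16:23981234-23981533, minus strand): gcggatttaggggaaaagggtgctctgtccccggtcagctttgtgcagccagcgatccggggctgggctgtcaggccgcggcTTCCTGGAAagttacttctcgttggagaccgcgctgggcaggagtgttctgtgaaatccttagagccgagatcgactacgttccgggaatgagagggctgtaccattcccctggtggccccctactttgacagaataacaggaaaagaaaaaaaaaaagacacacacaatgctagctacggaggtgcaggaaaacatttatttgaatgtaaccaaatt
Id3 (chr4:136143572-136143871, plus strand): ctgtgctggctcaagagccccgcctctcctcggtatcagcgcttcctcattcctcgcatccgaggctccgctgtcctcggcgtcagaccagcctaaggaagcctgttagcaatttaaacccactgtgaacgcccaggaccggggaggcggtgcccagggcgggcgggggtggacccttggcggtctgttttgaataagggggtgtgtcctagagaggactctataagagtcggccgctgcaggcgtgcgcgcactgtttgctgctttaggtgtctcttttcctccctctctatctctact
The match began 231 bases before the Prdm1 start, 18 before the Bach2 start and 168 before the Bcl6 start. A match is a run of letters and not a binding site. The printed starts of Prdm1, Bach2, Bcl6 and Id3 lie inside the spans that the deposited data give to these genes. The spans are chromosome 10 from 44437177 to 44528501 for Prdm1 and chromosome 4 from 32238804 to 32586108 for Bach2. For Bcl6 it is chromosome 16 from 23965052 to 23988852, and for Id3 chromosome 4 from 136143497 to 136145755.

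By the totals behind the RPKM, N held 29726219 reads, αA 27239921 and PαA 25465829. Ratios carry exact Clopper-Pearson 95% intervals from the reads of the libraries compared and single RPKM values carry Poisson intervals. Counting error is all that the intervals address, with each read taken as independent. PCR copies were not marked by molecular identifiers, so the intervals may be too narrow even for that. With 1 library per genotype, a difference is one between libraries, not between genotypes. Over all expressed genes the median log2 ratio was -0.14 in αA against N, -0.06 in PαA against αA and -0.19 in PαA against N, and TMM factors of edgeR added 0.16, 0.07 and 0.23 to every log2 ratio in these comparisons. Genes of the T-cell receptor complex and Cd4 were high in all libraries, with Cd4 at 488, 396 and 341 (RPKM, in N, αA and PαA), and Foxp3 was at 32.7, 20.9 and 15.3. The 7 B cell markers summed to an RPKM between 16.5 and 22.4, with Pax5 below 1 in every library. The 4 dendritic cell markers summed to between 1.46 and 2.23, the 4 NK cell markers to between 5.55 and 9.52 and Cd8a with Cd8b1 to between 8.14 and 14.1. The 6 plasma cell markers summed to 76.1 in N, 89.5 in αA and 132 in PαA, with Jchain at 44.3, 58.4 and 94.8, Sdc1 at 0.744, 1.03 and 5.97, Mzb1 at 4.01, 6.69 and 6.94, Derl3 at 0.968, 0.695 and 1.16, Tnfrsf13b at 25.9, 21.7 and 22.7 and Tnfrsf17 at 0.206, 0.946 and 0. The 7 measured myeloid markers summed to 283, 187 and 259, most of it Lyz2 (214, 134 and 184). No marker was at 0 in all 3 libraries.

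**Figure D1:**
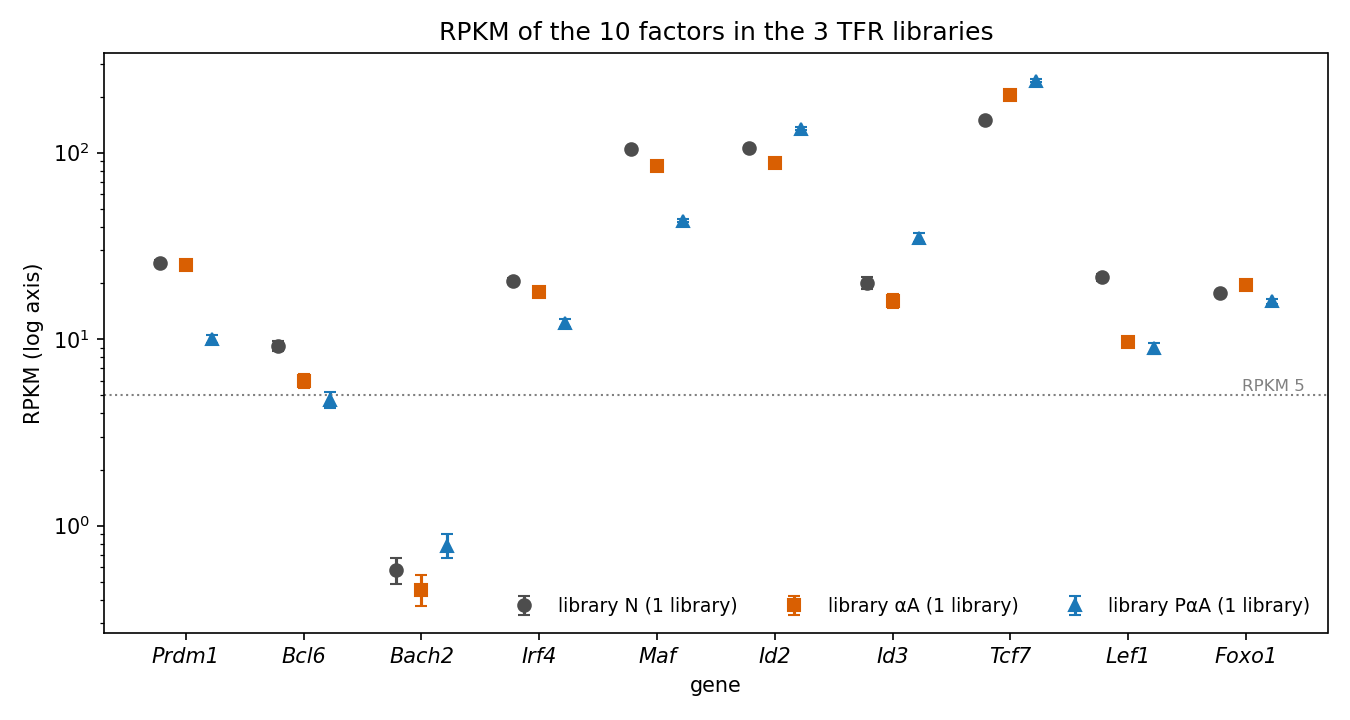
RPKM on a log axis of the 10 factors in the libraries N, αA and PαA (1 library each), with bars for the 95% Poisson intervals of the reads and a dotted line at an RPKM of 5. Tcf7 was the highest of the 10 in every library and Bach2 the lowest, and Prdm1, Maf and Id3 are the genes whose PαA value stands far from their other values.

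The order of the 10 genes by RPKM, a level per exon length, was nearly the same at its ends in the 3 libraries. Tcf7 led with an RPKM of 150 in N, 203 in αA and 244 in PαA, which was above 94.2% to 96.1% of expressed genes. Id2 and Maf followed, and in N (106 and 105) and αA (87.6 and 84.5) their intervals overlapped, whereas in PαA Id2 was at 134 and Maf at 43.3. In the middle, Prdm1 was number 4 in N and αA and number 7 in PαA, below Foxo1 and Irf4, and its PαA interval overlapped that of Lef1. Neighbours that did not differ beyond their intervals were also Lef1, Irf4 and Id3 in N and Irf4 and Id3 in αA. Bcl6 and Bach2 closed the order in every library. Of the 10 genes, 5 had their highest RPKM in N (Prdm1, Bcl6, Irf4, Maf and Lef1), 4 in PαA (Bach2, Id2, Id3 and Tcf7) and 1 in αA (Foxo1). Most expressed genes were lower by RPKM than in N, 68.1% of them in αA (46.4% with the TMM factors) and 4660 of 7017 in PαA. How many of all expressed genes were highest in each library was not counted. With the TMM factors Prdm1 was higher in αA than in N, by 0.12 on the log2 scale.

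**Figure D2:**
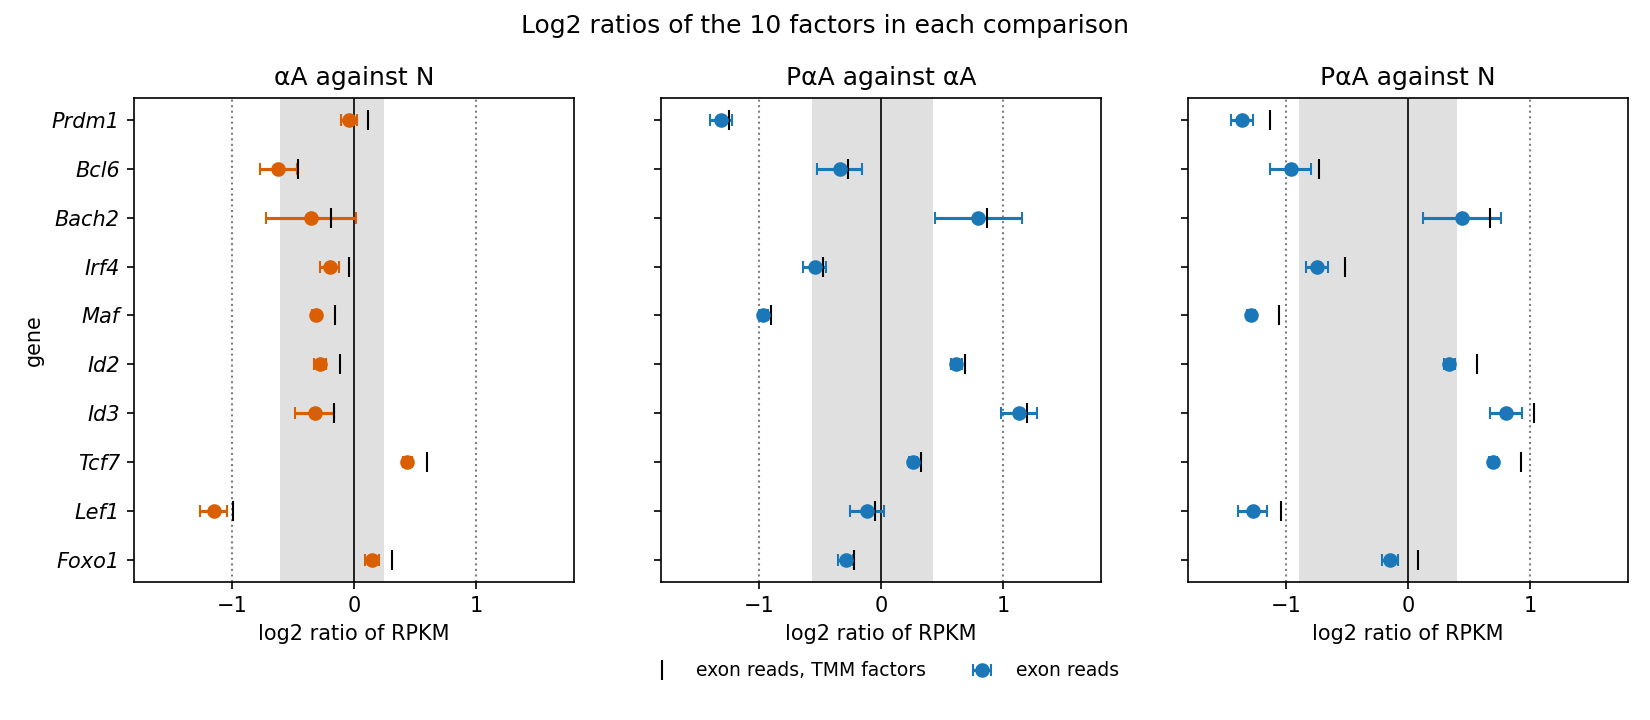
Log2 ratios of RPKM of the 10 factors in αA against N, PαA against αA and PαA against N (points, with 95% counting intervals), beside the ratio with TMM factors (ticks). The grey band holds the ratios of expressed genes between the percentiles 10 and 90 and dotted lines mark 2-fold. Lef1 lies outside 2-fold on the left, Prdm1 and Id3 in the middle, and Prdm1, Maf and Lef1 on the right.

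The comparison of αA with N asks how TFR cells labelled as carrying active NFATc1/αA differ from those labelled NFATc1-deficient. Of the 9 factors above the RPKM threshold, 1 differed more than 2-fold, Lef1, which was lower in αA. Among all 7017 expressed genes 4.25% differed more than 2-fold. At 1.5-fold the count was 2, with Bcl6 added, against 14.1% of all expressed genes. The median log2 ratio of the 9 factors was -0.28. Between PαA and αA, where the floxed Prdm1 allele is the labelled difference, 2 of the 9 differed more than 2-fold, Prdm1 (lower in PαA) and Id3 (higher), against a background of 4.63%. At 1.5-fold Maf and Id2 were added, which made 4 against 14.7% of all expressed genes. In PαA against N, which combines both differences and shares its libraries with the other comparisons, 3 of the 9 passed 2-fold, Prdm1, Maf and Lef1, all lower in PαA, against 10.3%, or 7.77% for lower genes alone. At 1.5-fold it was 7 of the 9 against 28% of all expressed genes. The counting interval of the log2 ratio left out 0 for 8, 8 and 9 of the 9 factors in these comparisons, but also for 73.8%, 73.6% and 81.4% of all expressed genes, so that an interval without 0 is the usual case at this depth. With only 9 factors, the counts past 2-fold rest on single genes.

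For Prdm1 (ENSMUSG00000038151), 4092, 3635 and 1370 exon reads were counted in N, αA and PαA, and the RPKM values were 25.6, 24.9 and 10.0. N and αA were alike within counting error, and PαA was below both. The log2 ratio was -0.04 (interval -0.11 to 0.02) in αA against N and -1.31 (-1.40 to -1.22) in PαA against αA, and only 2.33% of expressed genes had a larger absolute ratio in the latter comparison. The level in PαA was 0.40 times that in αA and still above the threshold of 5, in cells that were sorted on the GFP of the other allele. Exon-exon junction reads, which come from spliced RNA, were 311, 360 and 126, and their log2 ratio was -1.53 (-1.83 to -1.23) in PαA against αA. In αA against N the junction reads gave 0.39 (0.17 to 0.61), a direction that the exon reads did not show. Fewer cells with Prdm1 RNA and less of it per cell cannot be told apart in such bulk libraries. The summed plasma cell markers, of cells that also express Prdm1 and Irf4, were highest in PαA, where Prdm1 was lowest, mostly through Jchain, while Tnfrsf13b and Tnfrsf17 were not highest there, and their part in the Prdm1 ratio was not tested.

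The intron reads of Prdm1 did not follow its exon reads. N had 182, αA 165 and PαA 207 of them, which is 4.45, 4.54 and 15.1 intron reads per 100 exon reads. All genes together had 3.76, 5.60 and 4.07. Between PαA and αA the intron reads per exon read of Prdm1 were higher by 1.73 on the log2 scale (exact interval 1.42 to 2.05), and the median of the 1979 genes with at least 50 intron reads and 100 exon reads in every library was 0.01. Of these 1979 genes, 6 (0.303%) had a larger change. Scaled to the sum of intron reads, Prdm1 introns were higher in PαA than in αA by 0.85 (0.54 to 1.15). Between αA and N the change per exon read was 0.03 (-0.29 to 0.35), below the median gene at 0.53. Reads on single exons or introns were not analysed here, so that the part of the gene that holds these intron reads is not known.

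**Figure D3:**
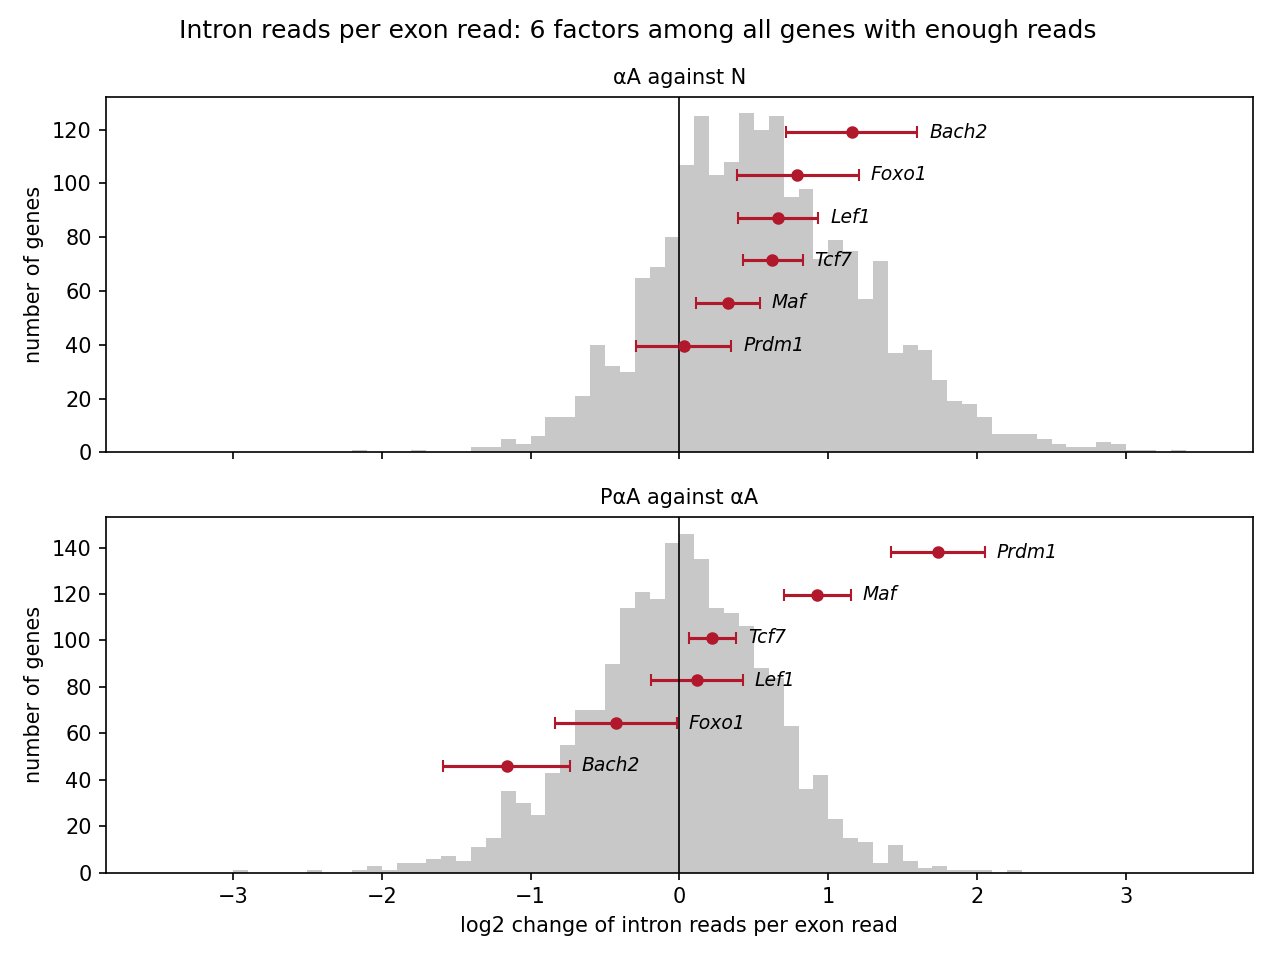
Histograms of the log2 change of intron reads per exon read over 1979 genes, in αA against N (top) and PαA against αA (bottom), with the 6 factors that had enough reads as points with exact 95% intervals at arbitrary heights. Prdm1 lies at 0.03 above and at 1.73 below, where 6 genes lie beyond it.

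Among the other factors with enough reads, Maf had 385, 355 and 323 intron reads in the libraries N, αA and PαA. Its intron reads per exon read were higher in PαA than in αA by 0.93 (0.70 to 1.15), a value that 5.76% of the 1979 genes exceeded. Tcf7 and Lef1 differed by 0.22 and 0.12 and Foxo1 by -0.42, values that 35.4%, 42.2% and 77.2% of these genes lay above. Bach2 went the other way, with -1.16 (-1.59 to -0.74). Bcl6 and Irf4 had between 22 and 52 intron reads in a library, below the minimum of 50 in at least 1 of them, with a change of 0.85 (0.19 to 1.52) and 1.22 (0.40 to 2.08).

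Bcl6 (ENSMUSG00000022508, chromosome 16 from 23965052 to 23988852), the repressor that opposes Blimp-1, had 960, 572 and 423 exon reads and RPKM values of 9.16, 5.96 and 4.71. Every library was below the one before it, and in PαA the gene was under the threshold of 5. The log2 ratio was -0.62 (-0.77 to -0.47) in αA against N and -0.34 (-0.52 to -0.15) in PαA against αA. Bcl6 was thus not higher where Prdm1 was lower. In PαA against N it was -0.96 (-1.13 to -0.79), close to 2-fold, and -1.36 (-1.79 to -0.94) by its 184, 77 and 64 junction reads. Of all expressed genes 8.51% had a lower ratio than Bcl6 in that comparison.

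Bach2 (ENSMUSG00000040270), which restrains effector genes, was near the limit of what these libraries show. It had 152, 109 and 177 exon reads and an RPKM of 0.575, 0.450 and 0.782, and only 0, 7 and 3 junction reads. Its introns held 240, 384 and 279 reads, more than its exons in each library. The exon ratio of PαA to αA was 0.80 (0.44 to 1.15) on the log2 scale. The junction reads gave -1.23 with an interval from -3.82 to 0.90, which includes both directions, and the intron reads 0.06 (-0.17 to 0.28). A difference in spliced Bach2 RNA was therefore not detectable at this depth. B cells express Bach2 as well, the B cell markers summed to an RPKM of 22.4, 16.5 and 17.7, and the part of such cells was not tested.

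Irf4 (ENSMUSG00000021356, chromosome 13 from 30749226 to 30766976), needed for effector Tregs and plasma cells, had 2991, 2386 and 1532 exon reads, and RPKM values of 20.5, 17.9 and 12.3. It was lowest in PαA, with a log2 ratio of -0.54 (-0.64 to -0.45) to αA, which 16.8% of expressed genes exceeded in absolute size. In αA against N the exon reads gave -0.20 (-0.28 to -0.12) and the junction reads 0.40 (0.14 to 0.66), so that the direction depended on the reads counted. Maf (ENSMUSG00000055435, chromosome 8 from 115682942 to 115707794), which encodes c-Maf and drives Il10 and follicular genes, had 25776, 18968 and 9081 exon reads and an RPKM of 105, 84.5 and 43.3. The log2 ratio of PαA to αA was -0.97 (-1.002 to -0.93), just short of 2-fold, and -1.13 in TPM. In PαA against N it was -1.28 (-1.32 to -1.25), and -1.05 with the TMM factors. By RPKM, Irf4 and Maf had the order N, αA, PαA from high to low that Bcl6 had, as did Prdm1 and Lef1. By junction reads Irf4 and Prdm1 were higher in αA than in N. The summed myeloid markers, of cells that can express Maf, followed Lyz2 and were lowest in αA, as were S100a8 (12.8, 0.831 and 11.9) and S100a9 (15.1, 0 and 11.5). Csf1r (6.25, 10.6 and 6.62) and Cd68 (16.4, 19.5 and 18.0) were highest in αA. Cd14 (2.33, 1.31 and 0.799) had the order of Maf, and Fcer1g (16.9, 21.0 and 26.9) had the opposite order. The part of myeloid cells in the Maf level was not tested.

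The ID genes had another order. Id2 (ENSMUSG00000020644, chromosome 12 from 25093799 to 25097140), which is induced in effector T cells, had 7693, 5818 and 8347 exon reads and an RPKM of 106, 87.6 and 134. Id3 (ENSMUSG00000007872, chromosome 4 from 136143497 to 136145755), which like Id2 encodes an ID protein, had 762, 558 and 1141 exon reads and an RPKM of 20.1, 16.0 and 35.1. Both were lowest in αA and highest in PαA. The log2 ratio of PαA to αA was 0.62 (0.57 to 0.67) for Id2 and 1.13 (0.98 to 1.28) for Id3. Id3 thus passed 2-fold in RPKM, with 1.20 by TMM factors and 1.22 by junction reads, but not in TPM, where it was 0.96. In αA against N the ratios were -0.28 (-0.33 to -0.23) and -0.32 (-0.48 to -0.16), about as far from 0 as those of many genes, since 40.0% and 33.7% of expressed genes had a larger absolute ratio. Of the E proteins that ID proteins bind and of the other ID genes, 2 of 5 were above the threshold, Tcf3 and Tcf12. Neither differed 2-fold in any comparison, where 4.25%, 4.63% and 10.3% of all expressed genes did. Tcf3, which encodes E2A, had an RPKM of 20.1, 16.9 and 18.7.

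Tcf7 and Lef1, which encode related factors that read the same DNA motif, differed in opposite directions between αA and N. Tcf7 (ENSMUSG00000000782, chromosome 11 from 52252371 to 52283014) had 11719, 14515 and 16284 exon reads in N, αA and PαA, each library above the one before it. Its log2 ratio was 0.43 (0.40 to 0.47) in αA against N, which 95.2% of expressed genes lay below, and 0.26 (0.23 to 0.30) in PαA against αA. Lef1 (ENSMUSG00000027985, chromosome 3 from 131110471 to 131224356) had 2239, 923 and 796 exon reads and an RPKM of 21.5, 9.66 and 8.92. N was above both other libraries, and these differed by -0.12 (-0.25 to 0.02), which includes 0. In αA against N the log2 ratio of Lef1 was -1.15 (-1.26 to -1.04), and 1.84% of expressed genes were lower. With the TMM factors it was -0.99 and no longer past 2-fold. Junction reads of Lef1 were 498, 240 and 142, which gave -0.87 (-1.10 to -0.65) in αA against N and -0.77 (-1.08 to -0.46) in PαA against αA, while its intron reads of 352, 230 and 215 gave -1.001 (-1.25 to -0.76) in αA against N.

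Of 9 relatives and partners of these factors, 5 were above the threshold, and 1 differed 2-fold, Satb1, a chromatin organizer, lower in αA than in N, as were 2.81% of all expressed genes by more than 2-fold. Its RPKM values were 6.29, 2.68 and 2.03, and the log2 ratio was -1.23 (-1.34 to -1.12). All 5 were lower in αA than in N, and 4 of them with the TMM factors, with a median log2 ratio of -0.47, while 68.1% of all expressed genes were lower by any amount and 46.4% with these factors, so that being lower is the usual case without them. Foxo1 (ENSMUSG00000044167, chromosome 3 from 52268336 to 52353221) had 4537, 4600 and 3516 exon reads and an RPKM of 17.6, 19.5 and 15.9. It varied least of the 10 genes, by 1.22-fold from the lowest to the highest library. Its log2 ratio was 0.15 (0.09 to 0.21) in αA against N, -0.29 (-0.35 to -0.23) in PαA against αA and -0.14 (-0.21 to -0.08) in PαA against N, and the last was 0.08 with the TMM factors.

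Genes known to depend on FOXO proteins differed more between the libraries than Foxo1. All 8 relatives and targets were above the threshold, and between PαA and αA 3 were more than 2-fold higher and none lower, against 2.18% and 2.45% of all expressed genes. In TPM these counts were 2 and 2. Klf2, a factor of quiescence and migration, stood at an RPKM of 54.3 in N, 56.0 in αA and 178 in PαA, S1pr1, its target for egress from lymph nodes, 55.5, 88.0 and 189, and Il7r, the IL-7 receptor, 82.9, 64.2 and 164. PαA was above both other libraries for each. Ccr7, the homing receptor to T-cell zones, was 2-fold higher in αA than in N, with 18.3, 49.9 and 73.7. The relatives Foxo3 and Foxp1 were lower in PαA than in αA, with a ratio of -0.98 (-1.10 to -0.86) and -0.88 (-1.01 to -0.76) on the log2 scale, and the median of the 8 genes was 0.25 in that comparison.

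**Figure D4:**
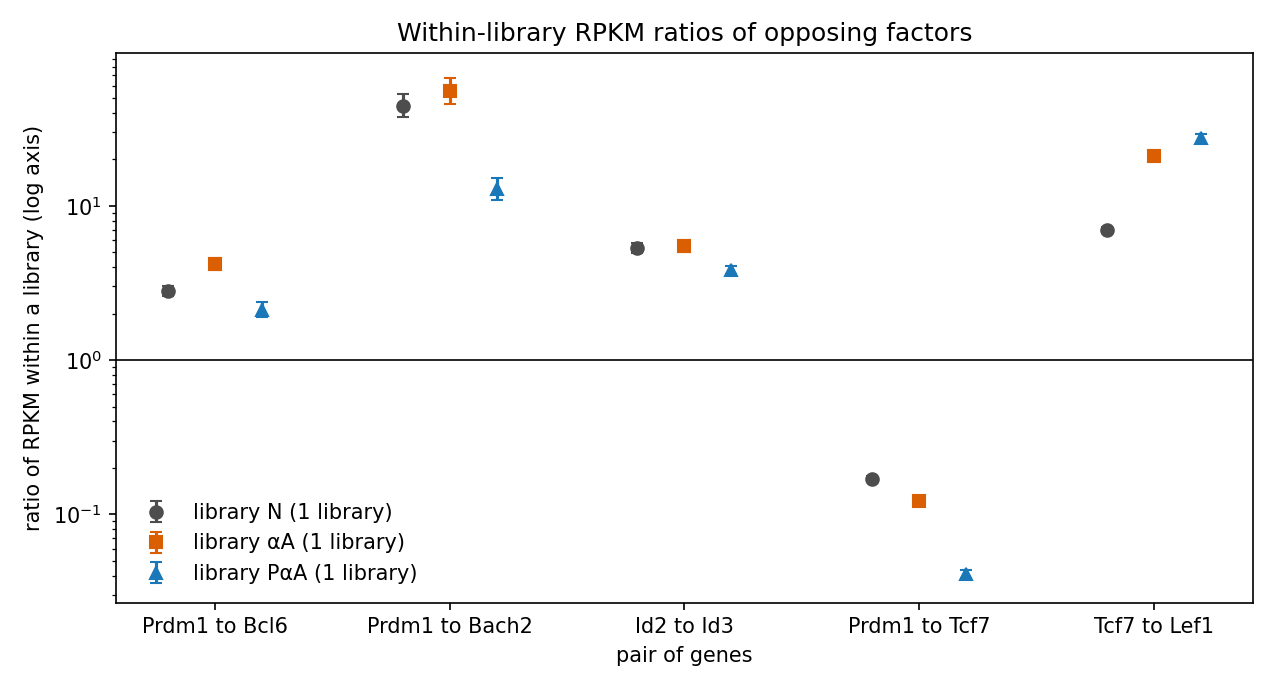
Ratios of RPKM between pairs of factors, some opposing and some related, within each library, on a log axis with 95% counting intervals, for the libraries N, αA and PαA (1 each). The ratio of Prdm1 to Bach2 and to Tcf7 is lowest in PαA, and that of Tcf7 to Lef1 is lowest in N.

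Ratios between pairs of factors, some opposing and some related, were also taken within each library, where no scaling between libraries enters. Prdm1 was 2.80 times Bcl6 in N, 4.17 times in αA and 2.13 times in PαA per exon length. The PαA library was thus below the αA library by 1.96-fold, with a log2 change of -0.97 (exact interval -1.18 to -0.77), and below N by 1.32-fold in exon reads, with -0.40 (-0.59 to -0.21). Junction reads, where length cancels between libraries, gave -1.25 (-1.83 to -0.66) for PαA against αA but 0.22 (-0.31 to 0.75) for PαA against N, so that the direction of the latter depended on the reads counted. Against Bach2 the ratio of Prdm1 was 44.6, 55.2 and 12.8, 4.31-fold lower in PαA than in αA in exon reads, which the 7 and 3 Bach2 junction reads could not resolve (-0.29, interval -2.45 to 2.31, on the log2 scale), and between N and αA the log2 change of 0.31 (-0.06 to 0.68) was within counting error. Prdm1 was 0.171, 0.122 and 0.0411 times Tcf7, a log2 change of -0.48 (-0.55 to -0.41) in αA against N and -1.57 (-1.67 to -1.48) in PαA against αA. By junction reads the former was -0.18 (-0.42 to 0.06), which includes 0. Id2 was 5.29, 5.47 and 3.83 times Id3, and only PαA stood apart, by -0.51 (-0.67 to -0.36) from αA. Tcf7 was 6.99 times Lef1 in N, 21.0 times in αA and 27.3 times in PαA, of which the step from N to αA was 3.005-fold and the step from αA to PαA 1.30-fold. On the log2 scale the second step was 0.38 (0.24 to 0.52) by exon reads and 0.91 (0.60 to 1.23) by junction reads. Its size thus depended on the reads counted. The first step was 1.59 (1.47 to 1.70) and 1.45 (1.21 to 1.69).

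Genes that act around Blimp-1 were read out in lists chosen by function. Of 10 signals upstream of it, the IL-2, IL-6 and IL-21 receptor chains and their STAT factors, all were above the threshold and all 10 were lower in PαA than in αA (10 with the TMM factors and 9 with median-of-ratios factors), with a median log2 ratio of -0.39, and 1 passed 2-fold. Of all expressed genes 56.9% were lower in that comparison by any amount, 49.4% with the TMM factors and 48.7% with median-of-ratios factors. Among the 10 signals, Il2rg had a log2 ratio of only -0.0009 with the TMM factors, and as few as 6.23% of its reads were unique. The signal past 2-fold was Il6st, which encodes gp130, with an RPKM of 6.85 in N, 16.7 in αA and 5.81 in PαA. In αA it stood above both other libraries, by 1.29 (1.22 to 1.36) over N. Of 11 PRDM relatives and Blimp-1 co-repressors, 8 were above the threshold. All 8 were lower in αA than in N (6 with the TMM factors), as were 68.1% of all expressed genes (46.4%). None differed 2-fold in αA against N or PαA against αA, where 4.25% and 4.63% of all expressed genes did. In PαA against N 1 of the 8 was more than 2-fold lower, against 7.77%, and none with the TMM factors. The highest of the 8, Hdac1, had an RPKM of 85.3, 51.3 and 38.2, and as few as 23.5% of its reads were unique, so that part of its reads may belong to copies. Among 10 BTB zinc-finger relatives of Bcl6 and its co-repressors, 6 were above the threshold, and Zbtb32, a repressor of T-cell activation, was 2-fold higher in αA than in N, as were 1.44% of all expressed genes, with 2.90, 8.33 and 9.83. Of 6 genes known to be repressed by Blimp-1 in plasma cells, 3 were above the threshold (Myc, Id3 and Bcl6). Of these, 1 was 2-fold higher in PαA than in αA, Id3, as were 2.18% of all expressed genes. Id3 is a factor already counted above, and in TPM it did not pass 2-fold. The log2 ratio of Bcl6 was -0.34 and that of Myc -0.05 in this comparison. Ciita, Pax5 and Spib were below it, and Myc had an RPKM of 12.8, 11.9 and 11.5.

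Of 13 Bach, MAF and AP-1 genes, 9 were above the threshold and none differed 2-fold in any comparison. Of all expressed genes 4.25% did so in αA against N, 4.63% in PαA against αA and 10.3% in PαA against N. A count of 0 among 9 genes is near these shares. Jund, the highest, had an RPKM of 355, 261 and 212. Of 12 IRF relatives and partners, 10 were above the threshold. None of the 10 differed 2-fold in αA against N or PαA against αA, which is near the same shares. In PαA against N 2 were more than 2-fold lower, against 7.77% of all expressed genes, and none with the TMM factors. The highest of the 10 were Ikzf3, which encodes Aiolos, in N and Irf1 in αA and PαA, with an RPKM of 68.3, 46.9 and 33.9 for Ikzf3 and of 57.9, 56.9 and 45.6 for Irf1. Among the 13 genes of the TFH program 12 were above the threshold. In αA against N 2 were more than 2-fold lower and none higher, against 2.81% and 1.44% of all expressed genes. These were Pou2af1, a coactivator in follicular cells, with an RPKM of 13.8, 6.50 and 4.88, and Il4, the cytokine, with 8.69, 2.54 and 4.15. Pou2af1 was at -0.92 with the TMM factors and so short of 2-fold. Between PαA and αA none passed in RPKM, where 4.63% of all expressed genes did. Of the 12, 10 were lower in PαA (8 with the TMM factors), against 56.9% of all expressed genes (49.4%), with a median of -0.36.

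**Figure D5:**
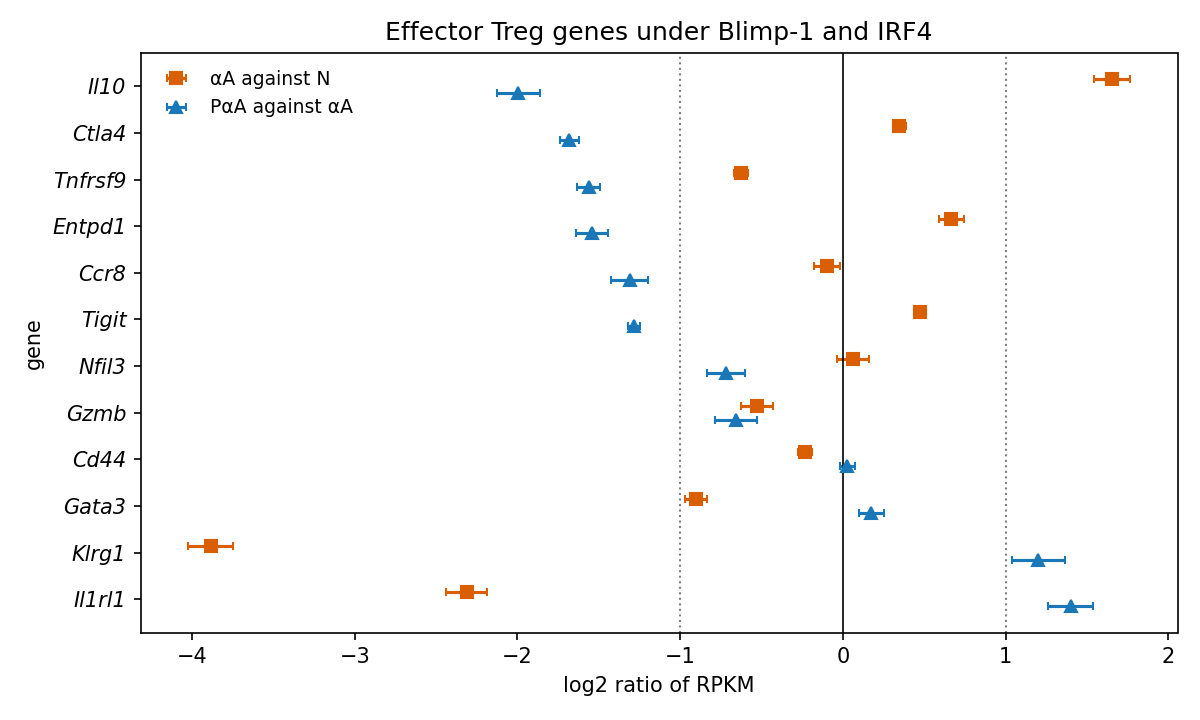
Log2 ratios of RPKM of 12 effector Treg genes in αA against N (squares) and PαA against αA (triangles), with 95% counting intervals and dotted lines at 2-fold. In PαA against αA, Il10, Ctla4, Tnfrsf9, Entpd1, Ccr8 and Tigit lie beyond the line on the left and Klrg1 and Il1rl1 beyond that on the right.

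Effector Treg genes are known to be controlled by Blimp-1 and IRF4. Of 12 such genes, all above the threshold, 6 were more than 2-fold lower and 2 more than 2-fold higher in PαA than in αA, against 2.45% and 2.18% of all expressed genes, with a median log2 ratio of -1.001. Il10, an immunosuppressive cytokine, had an RPKM of 22.1 in N, 69.4 in αA and 17.4 in PαA, and Ctla4, an inhibitory receptor, 148, 188 and 58.7. Both were highest in αA, as were Tigit, another inhibitory receptor (526, 732 and 301), and Entpd1, the ectonucleotidase CD39 (18.4, 29.2 and 10.1). Ccr8, a chemokine receptor of effector Tregs, had 76.6, 71.7 and 28.9. Tnfrsf9, the costimulatory receptor 4-1BB, had 141, 91.2 and 30.9, and as few as 23.1% of its reads were unique. Klrg1, a receptor of terminal effector cells, was far above the others in N, with 172 against 11.7 and 26.9, and Il1rl1, the IL-33 receptor ST2, likewise with 15.8 against 3.20 and 8.43. In αA against N 1 of the 12 was 2-fold higher (Il10) and 2 were lower (Klrg1 and Il1rl1), against 1.44% and 2.81% of all expressed genes, with a median of -0.16. Foxp3 was lower in PαA than in αA too, with 1550 against 2276 exon reads, and the part of cells without Foxp3 in these values was not tested. The list was chosen with earlier results of these libraries known, so its counts are a description.

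The genes whose pattern was most like that of a factor were found by the distance between pairs of log2 ratios (αA against N and PαA against αA) over 3 libraries, among 5657 expressed genes with at least 100 exon reads per library and at least 90% unique reads. With 3 libraries such a pattern holds only 2 numbers. Within a distance of 0.1 there were 3 genes for Prdm1, namely Bmp7 (a distance of 0.011), Ccr8 (0.051) and Hic1 (0.097), 1 for Id3, namely Spp1 (0.017), 6 for Lef1 and 10 for Maf. Bmp7, a signalling ligand, had an RPKM of 15.6, 15.1 and 6.06. Spp1, which encodes osteopontin, had 10.3, 8.29 and 18.3. The nearest genes were Prdx4 and Mpnd after Spp1 for Id3, Tpr and Nnt among the 3 nearest for Lef1, Kdm2b, Fam3c and Traf3ip3 for Maf, and Ehd3, Josd2 and Mettl23 for Tcf7, which had 14 genes within the distance. Common patterns were those of Foxo1 (103 genes, the nearest Adck1, Casp8 and Plgrkt), Irf4 (90 genes, Fem1b, Mcm4 and Bcl9l) and Bcl6 (54 genes, Brd1, Ylpm1 and Qrich1). Id2 had 25 (Pgls, Cd151 and Ccdc124) and Bach2 14 (Pccb, Ifrd2 and Ostf1).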

How the data were processed

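Poly(A) RNA of sorted TFR cells was sequenced as 59-base single reads. The authors trimmed adapters, aligned reads to GRCm38 and counted them in CLC Genomics Workbench with default RNA-Seq settings, after a kit that does not mark strand. The annotation release is not given in the sources used here. The authors deposited, per gene, counts of exon reads (total and unique), exon-exon junction reads and intron reads, with RPKM and TPM derived from them. The other values deposited by the authors (ratios of read types, chromosome regions) were used for gene positions or not at all. The label genotypes gave the groups.

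Log2 ratios were formed from total exon reads and library totals recovered from RPKM, which equal ratios of RPKM, and kept for genes above an RPKM of 5. An RPKM above 5 and a 2-fold ratio is the filter of the study with its expression value read as RPKM. Junction and intron reads were scaled to their own sums. With 1 library per genotype no test was run. The 3715 genes with an exon length of 0, Trac among them, were not used, and Itgam was not analysed here. At least 99.8% of the exon reads of each factor were unique, and no gene overlapping them had exon reads.

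The factors and gene lists were chosen with earlier results of these data known. Named are the factors, the targeted genes, Foxp3, of each list the genes past 2-fold in αA against N or PαA against αA (otherwise its highest gene) and the 3 genes nearest in pattern to each factor. Markers, Irf1, Il2rg, Tcf12, Foxo3, Foxp1 and list genes below the threshold are named as background or by count, chosen after their values were seen. Of the genes nearest in pattern, 1 is not reported here. Python 3.11.15, pandas 2.3.3, numpy 2.4.6, scipy 1.17.1, matplotlib 3.10.9, R 4.3.3, edgeR 4.0.16 (TMM factors) and DESeq2 1.42.0 (median-of-ratios size factors) were used, and ratios and intervals were tested on simulated data. The simulated reads were Poisson counts without PCR copies or spread between mice. They checked the calculation only and not whether the intervals are wide enough for these libraries.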

Additional observations from a re-analysis of the deposited data

How the results depend on the processing

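No paired analysis was possible because each genotype has 1 library and the result comes from no test. For the same reason no library could be left out. The number of factors past 2-fold was 1 in αA against N and became 0 with edgeR's TMM factors and 0 with median-of-ratios size factors (Lef1 at -0.99 and -0.98), and 2 at 1.5-fold. With junction reads it stayed 1, but the gene was Bcl6 (-1.08) in place of Lef1. In PαA against αA the count of 2 became 4 at 1.5-fold, and in TPM the pair was Prdm1 and Maf in place of Prdm1 and Id3. In PαA against N the count of 3 became 7 at 1.5-fold. It was 4 with TMM factors, where Id3 was added, with TPM, where Bcl6 was added, and with junction reads, where Bcl6 and Id3 came in and Maf went out. Counting without an RPKM filter, above an RPKM of 1, from unique reads or with a pseudocount of 1 RPKM called the same factors.

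Of the 178 alternative log2 ratios of single factors, 8 had the other sign and 5 of these were ratios whose interval left out 0. These were Irf4 in αA against N by junction reads (0.40), Bach2 in PαA against αA by junction reads (-1.23, from 7 and 3 reads), and Foxo1 in PαA against N with TMM factors (0.0844), median-of-ratios factors (0.0997) and junction reads (0.0702). The other 3 were Prdm1 in αA against N (0.12, 0.13 and 0.39 by the same settings). The cause was not tested. The ratio of Prdm1 to Bcl6 in PαA against N also changed sign by junction reads (0.22, from -0.40). Levels of junction reads within a library are not per length and are not set beside the RPKM ratios. With 1 library a genotype, the spread between mice is unknown for every value.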

Other observations

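Id2 had few intron reads (41, 8 and 76 for N, αA and PαA), and its intron reads per exon read differed by -1.95 (-3.26 to -0.84) in αA against N and 2.73 (1.67 to 3.99) in PαA against αA on the log2 scale. Id3 had 0, 10 and 0 intron reads. Lef1 had the most intron reads per exon read of the factors above the threshold, with 15.7, 24.9 and 27.0 per 100 exon reads. Per 100 exon reads, Bcl6 had 19.2, 13.5 and 15.1 junction reads, and Prdm1 had 7.60, 9.90 and 9.20.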
